A study of Mus musculus with 6 samples.

Results

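The genes described here are 36 genes of the BMP and TGF-β signaling pathway, out of 22028 protein-coding genes of the mouse genome, considered against the places where the transcription factor Gli3 was found on chromatin of the embryonic cerebral cortex. The genes were listed by their function, with earlier results of these data known, and comprise 13 ligands, 10 receptors and co-receptors, 8 Smads, 4 secreted antagonists and 1 decoy receptor. Chromatin came from dissected cortices of wild type mice at embryonic day 15 (E15). ChIP-seq, in which fragments of crosslinked chromatin are pulled down with an antibody and sequenced, was performed with a Gli3 antibody in 3 libraries, and 3 libraries of input DNA, taken without the antibody, served as control. The deposited result is 1 list of 4114 regions in mm10 coordinates, called sites here, joined over the libraries by a measure of reproducibility between replicates (IDR). A gene was counted as having a site when the midpoint of a site lay within 50 kb of its transcription start site (TSS), taken as the 5′ end of the gene in the GENCODE M21 annotation.

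The list gives positions only. It holds no height, score or p-value and no value for a single library, so no spread between replicates and no sequencing depth can be given, and shares carry exact (Clopper-Pearson) 95% binomial intervals that cover counting error only. Dissected cortex holds progenitors, neurons and other cells, and the positions alone do not show in which of them Gli3 was bound, nor could the tissue be checked against marker genes, as no expression was analysed here. A site near a TSS does not show that Gli3 acts on that gene.

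BMPs, TGF-βs and activins are secreted dimers that bring together type I and type II receptor kinases on the cell surface. The activated type I receptor phosphorylates receptor Smads, which join Smad4, enter the nucleus and bind DNA, while inhibitory Smads and secreted antagonists dampen the signal. In the forebrain, BMPs from the dorsal midline take part in patterning, and later BMP signaling favours astrocyte over neuron and oligodendrocyte fates. Gli3 is the zinc finger factor through which Hedgehog signaling is held off in dorsal cortex, mostly as a shortened repressor, and its DNA recognition sequence is built around the core GACCACCCA.

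Of the 36 genes, 11 had a site within 50 kb (30.6%, interval 16.3 to 48.1%), against 23.4% of all protein-coding genes, a share that lies inside that interval. The 11 genes were the ligands *Tgfb1* and *Gdf11*, the receptors *Acvr1b*, *Tgfbr1* and *Bmpr2*, the Smads *Smad3*, *Smad6* and *Smad7*, and the antagonists *Nog*, *Chrd* and *Fst*. They had 13 sites among them, 2 each for *Tgfb1* and *Chrd* and 1 each for the other 9. None of the 7 BMP ligand genes had a site, both inhibitory Smad genes did, and so did 3 of the 4 antagonist genes. So did 1 of 3 TGF-β ligand, 1 of 3 activin-type ligand, 2 of 5 type I receptor, 1 of 4 type II receptor and 1 of 5 receptor Smad genes. The co-receptor, *Smad4* and the decoy receptor had none. These counts per role are small and were not tested.

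The sequences that carry the Gli recognition letters in these sites are shown first, because only 1 of the 13 sites held the exact core. The core GACCACCCA and all 9-base words with 1 mismatch to it were searched on both strands. Where a site had no exact core, the match nearest to its midpoint is given. Each line is 29 bases of the GRCm38 (mm10) reference, 5′ to 3′ on the strand of the match, with the core or its near match in capitals. A token such as A2G gives the base of the core, its position counted from 1 at the 5′ end of the core, and the base in the site.
*Tgfb1* start site, exact core, chr7:25688532-25688560, minus strand: tctggaaagaGACCACCCAgcgagccctg
*Tgfb1* upstream site, A2C, chr7:25676442-25676470, plus strand: ccttcaggaaGCCCACCCAgtttgcactg
*Acvr1b*, C7A, chr15:101222130-101222158, plus strand: ggagggcttgGACCACACAcgtcttttcc
*Smad3*, A2G, chr9:63713026-63713054, minus strand: ttggctgagaGGCCACCCAgacaggcctc
*Smad6*, C6G, chr9:64058540-64058568, plus strand: caacaacccaGACCAGCCAagatgcttgc
*Nog*, A2C, chr11:89300157-89300185, minus strand: gtcagagcgcGCCCACCCAgatccagcca
*Chrd* upstream site, A9T, chr16:20709370-20709398, minus strand: tactctttggGACCACCCTgagggactcc
*Fst*, A5G, chr13:114458776-114458804, minus strand: cacactgggaGACCGCCCAccgcaaacct

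The sites of *Gdf11*, *Tgfbr1* and *Bmpr2* and the downstream site of *Chrd* held no match with 1 mismatch or none. The sequence of the *Smad7* site is not shown. A match is a description of letters and was not tested as a place of binding, and its absence from a site says nothing about how Gli3 was held there.

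**Figure D1:**
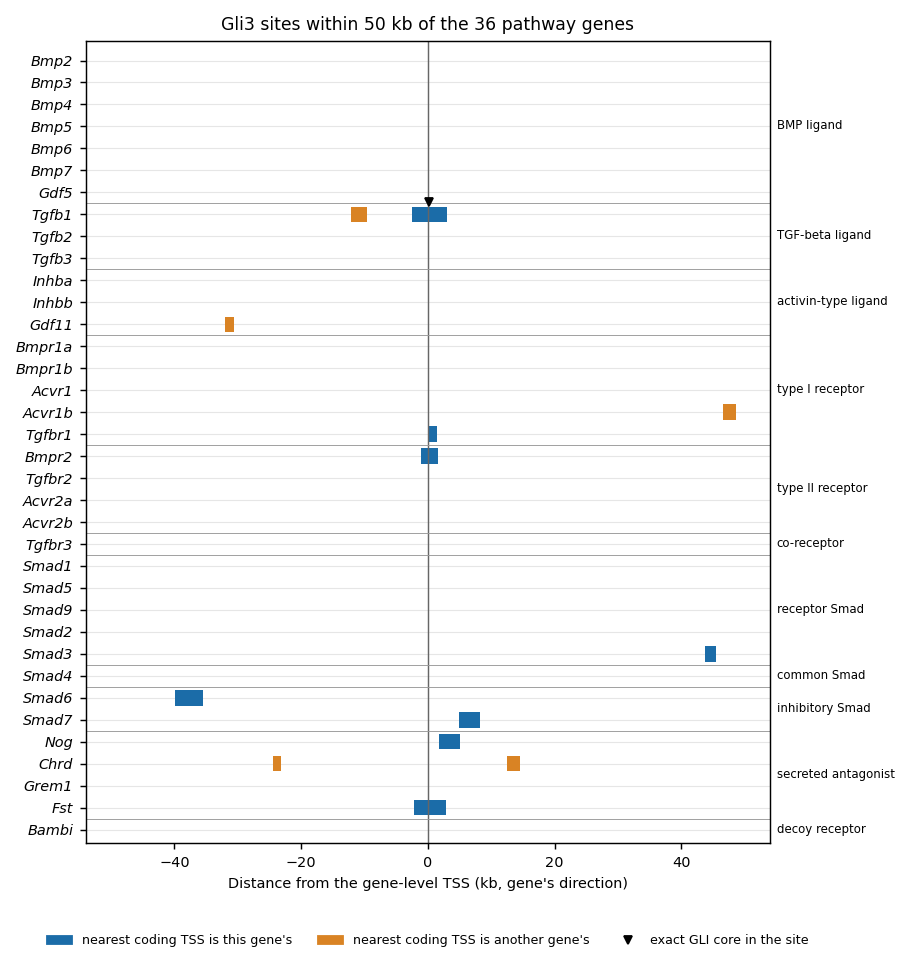
Each row is 1 of the 36 genes, grouped by role, and each bar is a Gli3 site drawn to scale at its distance from the gene-level TSS in kb, with positive values in the direction of transcription. Blue bars have that gene's TSS as the nearest coding TSS and orange bars another gene's, and the triangle marks the 1 site with an exact GLI core. The 7 BMP ligand rows are empty, and 4 bars cross a TSS, those of *Tgfb1*, *Tgfbr1*, *Bmpr2* and *Fst*.

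Among the ligands, *Tgfb1* had the widest site of the whole group directly over its start. *Tgfb1* encodes the founding TGF-β, which is secreted in latent form. This site, chr7:25684511-25689941, was 5431 bp wide, wider than 97.1% of all sites, and reached 2491 bp upstream and 2939 bp downstream of the TSS. Its midpoint fell in an annotated exon of *Tgfb1*, 224 bp past the TSS. The exact core lay toward its downstream side, 1544 bp past the TSS and 1320 bp from the midpoint, in intronic sequence of *Tgfb1*, close to an annotated exon of a processed transcript that the end of the printed line touches. The same site held 3 further words with 1 mismatch, at -849, -234 and 621 bp from the TSS (G1C, C6A and C3A).

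A second *Tgfb1* site, chr7:25674922-25677371, lay 10.9 kb upstream, 7.14 kb from the edge of the former. It was 2450 bp wide and its midpoint was 980 bp from the TSS of *Tmem91*, the nearest coding gene, so it was a promoter site of the neighbour. *Tgfb1* also stood in the most crowded neighbourhood of the 36 genes, with 5 other coding TSSs within 50 kb.

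The other TGF-β ligand genes had no site within 50 kb. The nearest midpoint was 66.7 kb from *Tgfb2* and 84.3 kb from *Tgfb3*, which encode the isoforms best known from heart, palate and craniofacial development. Of the activin-type ligands, *Gdf11*, a relative of myostatin that acts in axial patterning and in restraining neurogenesis, had 1 site, chr10:128922321-128923676, of 1356 bp and 31.3 kb upstream. Its midpoint lay 110 bp from the TSS of *Rdh5* and in an exon of *Bloc1s1*, at the promoters of these 2 genes. *Inhbb*, which encodes the activin βB subunit, was 111 kb from its nearest site. *Inhba*, which encodes the βA subunit, was 3446.1 kb away, the longest distance of the group.

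The 7 BMP ligand genes spanned a wide range of distances. *Bmp3*, whose product counteracts other BMPs, was nearest at 62.6 kb, followed by *Bmp7*, a ligand made by meninges and choroid plexus among other tissues, at 84.2 kb. *Bmp5* was 224 kb and *Bmp6* 290 kb from a site, both of them ligands of the same subgroup as *Bmp7*. *Bmp2* and *Bmp4*, the pair of closely related ligands most used in patterning, were 706 and 1038.8 kb from a site, and *Gdf5*, a joint-forming ligand, was 720 kb away. *Bmp7*, *Bmp6* and *Bmp2* were the 3 of these 7 with a CpG-rich promoter, as defined further on.

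Among the receptor genes, *Tgfbr1* and *Bmpr2* had a site over the TSS. *Tgfbr1* encodes the type I receptor for TGF-β. Its site, chr4:47353190-47354658, was 1469 bp wide and lay almost wholly downstream, with 32 bp before the TSS and 1436 bp after it and its midpoint in intron 1 of 8. *Bmpr2* encodes the type II receptor for BMPs. Its site, chr1:59762257-59764975, was 2719 bp wide, extended 1143 bp upstream and 1575 bp downstream, and had its midpoint 216 bp past the TSS, the shortest distance of all 36 genes. Neither gene had another coding TSS within 50 kb.

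Unlike the start sites of *Tgfb1* and *Fst*, these 2 held no Gli match. Like them, both held several copies of GGCGCC, a GC-rich word that Smad proteins are known to bind, with 4 in the *Bmpr2* site and 3 in each of the others. The stretches of 200 bases below lie outside annotated exons, in the strand of the gene, with GGCGCC in capitals, at 2 places in *Tgfbr1* intron 1 and at 1 place just upstream of *Bmpr2*.
*Tgfbr1*, chr4:47353398-47353597, plus strand: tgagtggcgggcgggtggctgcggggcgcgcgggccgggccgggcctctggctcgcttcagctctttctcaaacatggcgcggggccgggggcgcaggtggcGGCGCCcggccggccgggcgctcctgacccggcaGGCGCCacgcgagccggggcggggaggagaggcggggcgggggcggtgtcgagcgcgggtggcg
*Bmpr2*, chr1:59763200-59763399, plus strand: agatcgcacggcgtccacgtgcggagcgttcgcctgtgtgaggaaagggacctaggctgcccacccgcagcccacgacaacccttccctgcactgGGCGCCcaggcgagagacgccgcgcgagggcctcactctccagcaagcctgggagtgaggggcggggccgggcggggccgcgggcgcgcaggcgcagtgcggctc

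The third receptor gene with a site was *Acvr1b*, the activin type I receptor, and its site was the farthest inside the window. It lay 47.6 kb downstream of the TSS at chr15:101220654-101222724, was 2071 bp wide, and had as nearest coding TSS that of *Grasp*, at 2499 bp. The midpoint was 442 bp from the start of the long noncoding RNA *AU021063*, whose promoter it was counted to. Just outside the window, *Smad4* was 51.0 kb from its nearest site, so the position of the limit separates these 2 genes.

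The remaining 7 receptor and co-receptor genes had none. *Acvr2b*, an activin type II receptor, was nearest at 126 kb, and its paralog *Acvr2a* was 638 kb away. The BMP type I receptor genes *Bmpr1a* and *Bmpr1b* were 192 and 391 kb away, and *Acvr1*, a further type I receptor for BMPs, 595 kb. *Tgfbr2*, the partner of *Tgfbr1* in TGF-β binding, was 745 kb from a site, so that the 2 genes of that receptor complex differed. *Tgfbr3*, encoding the co-receptor betaglycan, was 201 kb away by its gene-level TSS, but had a site within 50 kb of another of its annotated transcript starts.

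Among the Smads, the 3 genes with a site all had it away from the gene-level start, and for all 3 the nearest coding TSS was their own. *Smad3*, a receptor Smad of the TGF-β and activin branch, had a 1715 bp site in intron 1 of 8, 44.6 kb past the TSS, at chr9:63712555-63714269. The start of another coding transcript of *Smad3* was 1443 bp from its midpoint. A pair of near matches stood close together in this site, both with A2G and on opposite strands. They are shown in capitals in 200 bases written in the strand of the gene.
*Smad3*, chr9:63712971-63713170, minus strand: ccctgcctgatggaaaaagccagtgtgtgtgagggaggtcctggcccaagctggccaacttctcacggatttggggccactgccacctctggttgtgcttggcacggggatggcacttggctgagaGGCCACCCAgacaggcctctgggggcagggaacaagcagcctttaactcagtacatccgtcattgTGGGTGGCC

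*Smad6*, an inhibitory Smad that mainly limits BMP signaling, had a site of 4479 bp, wider than 93.4% of all sites, 37.7 kb upstream of its TSS at chr9:64057510-64061988. It lay between genes, with the nearest annotated transcript start, of the noncoding *1110036E04Rik*, 9920 bp away, and it held 3 words with 1 mismatch to the core. *Smad7*, the inhibitory Smad that acts on both branches, had a site of 3370 bp at chr18:75372423-75375792, 6.58 kb past the TSS in intron 2 of 3. A processed transcript of *Smad7* started 807 bp from its midpoint.

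The other Smad genes had no site in the window. *Smad9*, a receptor Smad of the BMP branch, was 62.3 kb from a site, and the other BMP branch genes *Smad5* and *Smad1* were 192 and 240 kb away. *Smad2*, the partner of *Smad3* in the TGF-β branch, was 230 kb away.

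Of the antagonists, *Fst* had the site most like that of *Tgfb1*. *Fst* encodes follistatin, which binds activins and some BMPs. The site, chr13:114456059-114461156, was 5098 bp wide, wider than 96.2% of all sites, and covered the TSS with 2205 bp upstream and 2892 bp downstream. It held 3 near matches, of which the one shown lay 161 bp past the TSS in exonic sequence annotated as 5′ UTR. The antisense transcript gene *Gm47040* also starts within 2 kb of its midpoint, so the site was at the start of both.

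*Nog* encodes noggin, a BMP antagonist of the dorsal midline and of neural stem cell niches. Its site at chr11:89297256-89300633 was 3378 bp wide with a midpoint 3.39 kb past the TSS. The gene is only 1695 bp long and has no intron, so the site lay just beyond its 3′ end, between genes, and was not within 2 kb of any annotated start. *Chrd*, encoding chordin, had 2 sites, and for neither was *Chrd* the nearest coding gene. The upstream one, chr16:20708729-20709987, lay 23.8 kb away in an intron of *Clcn2* and was 1259 bp wide, the narrowest of the 13. Its midpoint was 232 bp from the start of a *Clcn2* transcript annotated as retained intron. The nearest coding gene was *Polr2h*, at 8307 bp. The downstream one, chr16:20745654-20747634, lay 13.5 kb past the TSS between genes, with *Thpo* as nearest coding gene at 12133 bp and the small nuclear RNA gene *Gm22741* 1336 bp away. *Grem1*, encoding the BMP antagonist gremlin, was 1377.4 kb from its nearest site, and *Bambi*, which encodes a receptor-like protein without kinase activity, 331 kb.

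**Figure D2:**
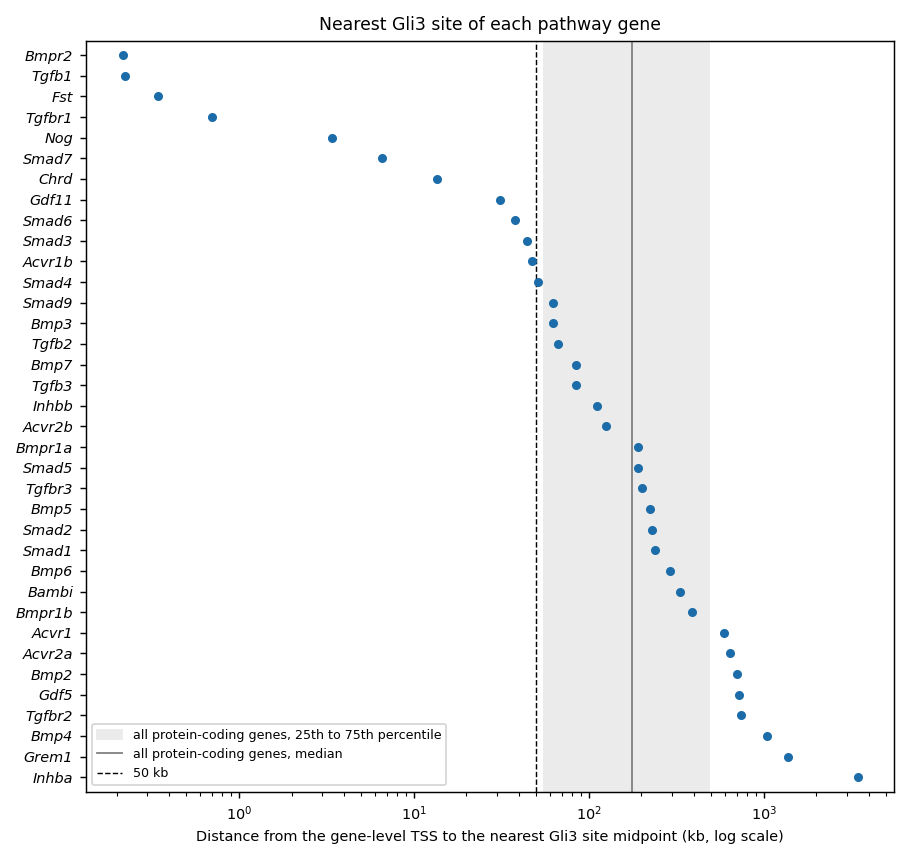
Points give, for each of the 36 genes, the distance from the gene-level TSS to the nearest site midpoint in kb on a log scale, sorted, with the 50 kb limit dashed. The grey band and line are the 25th to 75th percentile and the median of protein-coding genes. Distances run from 0.216 kb at *Bmpr2* to 3446.1 kb at *Inhba*, and *Acvr1b* and *Smad4* lie on either side of the limit.

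Over all 36 genes, the median distance to the nearest site was 118 kb, with a 25th to 75th percentile of 42.9 to 346 kb. For the 21938 protein-coding genes on assembled chromosomes it was 177 kb, with 55.4 to 487 kb. The 36 genes were longer than most, with a median length of 42.6 kb against 17.3 kb, and had fewer neighbours, with a median of 0 other coding TSSs within 50 kb against 2. Among genes with 0 or 1 such neighbour, 8 of 30 pathway genes (26.7%, interval 12.3 to 45.9%) and 18.1% of 10920 protein-coding genes had a site. Of the 5 pathway genes with 2 to 4 neighbours, *Gdf11* and *Chrd* had a site, and the background at that density was 25.3%.

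All 11 of the 36 genes with a site had the same type of promoter, which was also that of most of the 36. A CpG-rich promoter, defined as over 50% GC and a ratio of observed to expected CpG over 0.6 in the 500 bp on either side of the TSS, was present in 30 of the 36 genes (83.3%) and in 44.2% of protein-coding genes. All 11 genes with a site were CpG-rich, which is 11 of 30 (36.7%, interval 19.9 to 56.1%), against 30.5% of all CpG-rich genes. The 6 others, *Bmp3*, *Bmp4*, *Bmp5*, *Gdf5*, *Tgfb2* and *Inhba*, had none (0 of 6, which allows a share of up to 45.9%), against 17.8% of CpG-poor genes. All 6 are ligand genes. The split was not seen in 78 other genes of the pathway, described further on. Of these, 14 of 39 CpG-rich genes (35.9%) and 12 of 39 CpG-poor genes (30.8%) had a site. The part of promoter type in the count was not tested.

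Stricter ways of tying a site to a gene gave smaller counts. A site covered the TSS itself in 4 of 36 genes (11.1%, interval 3.11 to 26.1%), against 6.19% of protein-coding genes. Among CpG-rich genes alone this was 4 of 30 (13.3%) against 11.3%. The gene was the nearest coding gene of a site within 50 kb in 8 of 36 (22.2%, interval 10.1 to 39.2%), against 10.8%, and *Gdf11*, *Acvr1b* and *Chrd* were the 3 that dropped out. A midpoint lay inside the gene in 6 of 36 (16.7%, interval 6.37 to 32.8%), against 8.84%. Having 2 or more sites was seen in 2 of 36 (5.56%, interval 0.68 to 18.7%), against 4.84%. Each background lay inside the interval of the pathway genes, so none of these counts was set apart from all protein-coding genes beyond counting error.

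**Figure D3:**
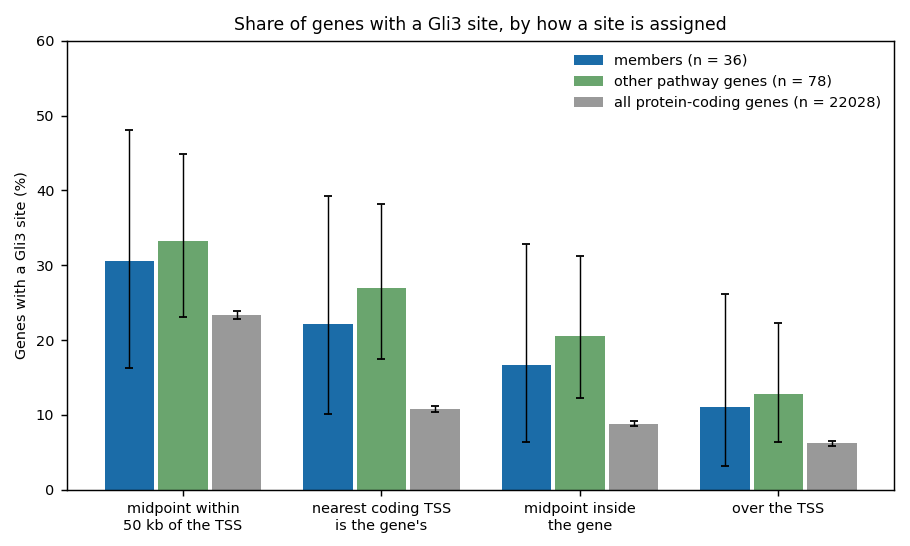
Bars give the percent of genes with a Gli3 site under 4 ways of tying a site to a gene, for the 36 genes (blue), 78 other genes of the pathway (green) and all 22028 protein-coding genes (grey), and error bars are exact 95% binomial intervals. The blue bars stand at 30.6, 22.2, 16.7 and 11.1%, and each blue interval spans the grey bar beside it.

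The 13 sites were next compared with the rest of the list by position, width and sequence. The share of promoter sites is tied to the choice of sites by distance to a TSS. Its like background is therefore that of sites within 50 kb of a coding TSS. By midpoint, 11 of 13 (84.6%, interval 54.6 to 98.1%) were promoter sites, lying 2 kb or less from a transcript start of any kind, against 61.6% of the 2761 sites within 50 kb of a coding TSS and 45.5% of all sites. Only 4 of those 11 were at the gene-level start of the pathway gene itself. *Smad3* and *Smad7* counted through other transcripts of their own, and the remaining 5 sites were at transcript starts of neighbours. For the *Acvr1b* site and both *Chrd* sites, no gene-level TSS of a coding gene lay within 2 kb. The *Smad6* and *Nog* sites were the 2 that were not promoter sites.

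The median width was 2450 bp. For the 8 sites whose nearest coding gene was the pathway gene it was 3374 bp. Their 25th to 75th percentile was 2468 to 4633.8 bp. The median was 2103 bp for sites within 50 kb of a coding TSS, 1989 bp for all sites and 2176 bp for all promoter sites. The 5 sites nearest to another gene had a median of 1981 bp, close to that of all sites. GC content ran from 45.4% at the downstream *Chrd* site to 61.8% at *Bmpr2*, with a median of 54.7%. It was 53.2% for sites within 50 kb of a coding TSS, 55% for all promoter sites and 51.4% for all sites. In regions of equal length on either side, starting 1 site length from the edge, the median was 47.9%.

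**Figure D4:**
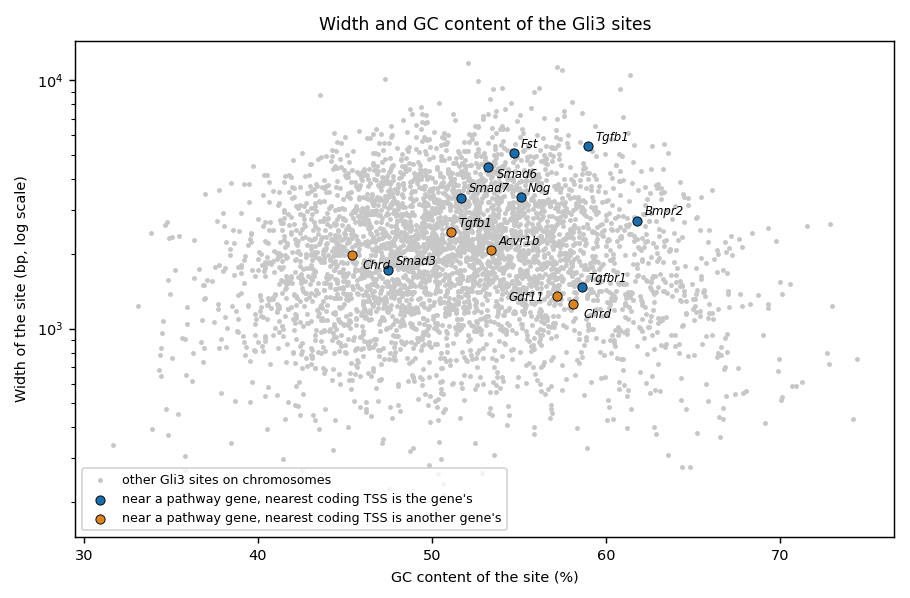
Each point is a site on an assembled chromosome, with its GC content in percent on the x axis and its width in bp on a log y axis. The 13 pathway sites are named and coloured by whether the pathway gene is the nearest coding gene, and the others are grey. *Tgfb1*, *Fst* and *Smad6* lie near the top of the cloud at 5431, 5098 and 4479 bp, and the narrowest named site is the upstream one of *Chrd* at 1259 bp.

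The exact Gli core was in 1 of 13 sites (7.69%, interval 0.195 to 36%), against 11.2% of sites near a coding TSS and 12.2% of all 4099 sites with sequence. In the 26 flanking regions it occurred in 2 (7.69%), and in the flanks of all sites in 1.83%. With 1 and 2 regions holding a core, no difference between the 13 sites and their own flanks was detectable. With 1 mismatch allowed, 9 of 13 (69.2%) had a match, against 64.7% of all sites, 46.2% of the 26 flanks and 39.1% of the flanks of all sites. No core lay in the central 200 bp of a pathway site, and 1.68% of all sites had one there. The match nearest to a midpoint was that of the upstream *Chrd* site, 26 bp away.

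The Smad words were searched in the same way on both strands. The paired box GTCTAGAC was in 0 of 13 sites (which allows up to 24.7%), in 2 of their 26 flanks and in 1.93% of all sites. GGCGCC was in 7 of 13 (53.8%, interval 25.1 to 80.8%). These were the sites of *Gdf11*, *Acvr1b*, *Tgfbr1*, *Bmpr2*, *Nog* and *Fst* and the start site of *Tgfb1*. The share was 44.6% for sites within 50 kb of a coding TSS, 34.6% for all sites and 57.9% for all promoter sites. Each of these backgrounds lay inside the interval. In the flanks the share was 15.4%. RefSeq promoter windows of GRCm38, which span each start, were found for 24 of the 36 genes. GGCGCC was in 9 of their 29 windows (31%), from 8 of the 24 genes, against 11.9% of all 32851 windows. GTCTAGAC was in 1 of the 29 (3.45%), against 0.213%. The exact Gli core was in 0 of the 29, against 0.253%. With 1 mismatch allowed it was in 1 (3.45%), against 6.74%. These windows were not matched by promoter type. A CpG-rich promoter was present in 83.3% of the 36 genes and in 44.2% of protein-coding genes. The differences between the windows were not tested.

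A wider list of 78 genes of the same pathway gave a similar count. Of these, 26 had a site within 50 kb (33.3%, interval 23.1 to 44.9%), against 23.4% of all protein-coding genes, a share inside that interval. They had 41 sites, of which 1 counted for both *Inhbc* and *Inhbe*. By role they were 5 of 20 further ligands, 3 of 8 receptors or co-receptors, 6 of 24 extracellular regulators, 6 of 15 intracellular regulators and 6 of 11 response genes. These small counts were not tested. The nearest coding gene of a site was the pathway gene in 21 of 78 (26.9%, interval 17.5 to 38.2%), against 10.8% of protein-coding genes. A midpoint lay inside the gene in 16 of 78 (20.5%, interval 12.2 to 31.2%), against 8.84%. A site covered the TSS in 10 of 78 (12.8%, interval 6.32 to 22.3%), against 6.19%. The backgrounds of the nearest-gene, inside-gene and TSS measures lay below the intervals of the 78 genes. Having 2 or more sites was seen in 8 of 78 (10.3%, interval 4.53 to 19.2%), against 4.84%, which lay inside. As this list too was drawn up with earlier results known, these shares are a description and do not set the 78 genes apart.

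The genes of this wider list with 2 or more sites were *Amh*, *Inhbe*, *Rgma*, *Dand5*, *Skil*, *Pmepa1*, *Id4* and *Atoh8*. *Rgma*, a BMP co-receptor also known for axon guidance, and *Pmepa1*, an inhibitor of TGF-β signaling that the pathway itself induces, had 5 each, a number reached by 26 protein-coding genes (0.118%) and by none of the 36. All 10 of these sites had *Rgma* or *Pmepa1* as nearest coding gene. For *Rgma* they lay at -30.8, 14, 38.6, 43.6 and 46.3 kb from the TSS, and the site at 38.6 kb held an exact core. For *Pmepa1* they lay at -29.4, -1.48, 4.18, 18.4 and 24.8 kb, none with an exact core, and the site at 4.18 kb was 7648 bp wide. The *Rgma* sites at 38.6, 43.6 and 46.3 kb lay edge to edge with gaps of less than 1 kb. So did the *Pmepa1* sites at -1.48 and 4.18 kb. Joining sites within 1 kb would lower both counts of 5, and the 26 genes were not recounted that way.

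*Skil*, encoding the Smad corepressor SnoN, had a site over its TSS, with the midpoint at 0.46 kb, and another upstream at -2.9 kb. Their edges lay less than 1 kb apart. *Id4* and *Atoh8*, transcription factor genes that respond to BMPs, each had a site over the TSS and a second one, at -32.4 kb for *Id4* and 18.4 kb for *Atoh8*, and each had an exact core in 1 of its 2 sites. For *Amh* 1 of 3 sites, for *Dand5* 1 of 3 and for *Inhbe* 0 of 2 had the named gene as nearest coding gene. The other two *Dand5* sites were nearest to *Nfix*, and 1 *Inhbe* site was nearest to *Gli1*.

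**Figure D5:**
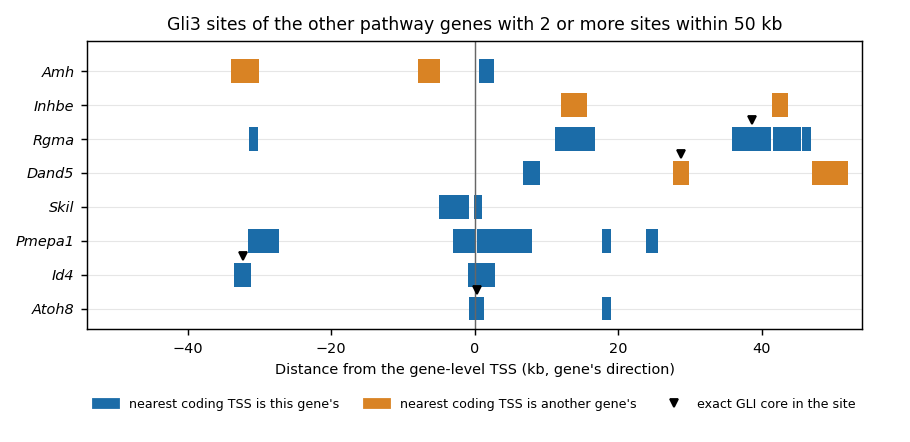
Rows are the 8 genes of the wider list with 2 or more sites, with bars to scale at their distance from the gene-level TSS in kb, coloured as in the map of the 36 genes, and triangles mark sites with an exact GLI core. *Rgma* and *Pmepa1* have 5 blue bars each, and 4 triangles fall on *Rgma*, *Dand5*, *Id4* and *Atoh8*.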

How the data were processed

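The authors crosslinked dissected cortices, sheared the chromatin, and sequenced Gli3 ChIP and input libraries as read pairs. Per the labels and the file header, reads were aligned to mm10 with Bowtie2, repeats were filtered, peaks were called with MACS2 and replicates were joined by IDR (optimal set). Versions and thresholds were not given in the sources used here. The deposited values are start and end positions with a name, with no count, signal or score. Depth per library is therefore unknown. Replicate numbers only name the libraries.

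Positions were read as BED and written 1-based. Genes, TSSs and transcripts came from GENCODE M21 and sequence from GRCm38. For 15 of 4114 sites, on unplaced scaffolds, no sequence was read. Python 3.11.15 with numpy 2.4.6 and scipy 1.17.1 was used, and the assignment and word search were tested on simulated data. Words that read the same on both strands were counted once. The 36 genes and the lists were chosen with earlier results of these data known, so no test was run on them. All 36 genes are named, and of the 78 others those with 2 or more sites. Matches are printed with 10 bases on either side, fewer than planned, to keep them short in untranslated exons. The alternatives were other windows, start definitions, site subsets, promoter definitions and word rules.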

Additional observations from a re-analysis of the deposited data

How the results depend on the processing

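The count of 11 genes with a site was 12 with any annotated transcript start (adding *Tgfbr3*), 11 by the nearest edge of the site and 8 when a site went to its nearest coding gene only. It was 7 within 20 kb, 17 within 100 kb, 7 with only sites at least as wide as the median, and 2 (*Smad6* and *Nog*) with only sites over 2 kb from any TSS. The 13 sites became 8, 22, 8 and 2 under those 4 settings, 8 by nearest coding gene and 14 with any transcript start, and stayed 13 when sites within 1 kb were joined. The percent of protein-coding genes with a site, 23.4, became 13.3 within 20 kb, 36.4 within 100 kb, 26.1 with any transcript start, 13.9 for wide sites, 7.48 for sites over 2 kb from any TSS and 10.8 by nearest coding gene. In that nonpromoter setting the share of the 36 genes (5.56%) was below the background, and in the others above it. In every setting the background lay inside the interval of the 36 genes. That interval was 8.19 to 36% within 20 kb, 30.4 to 64.5% within 100 kb and 10.1 to 39.2% by nearest coding gene. The settings share most of their sites, so their common direction is not independent evidence of an excess. The share of promoter sites, 84.6%, was 69.2% within 1 kb and 53.8% when only 2 kb upstream counted. The share with a Gli core, 7.69%, was 69.2% with 1 mismatch and 0% in the central 200 bp. By construction each setting admits other sites or words. No paired analysis was possible because the list is joined over replicates, and for the same reason no replicate could be left out. The list has no score, so a stricter peak threshold was not run.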
